A study of Mus musculus with 9 samples.

Results

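The mitochondrially encoded genes were taken as all genes of the count table whose symbol starts with mt-. There were 37 of 38293 genes: 13 protein-coding genes, 2 rRNA genes and 22 tRNA genes. They were measured in ventricles of mice at postnatal day 7, in 5 libraries from Arid1a f/f control animals and 4 libraries from aMHC-Cre;Arid1a f/f animals (cKO). All animals carried the floxed Arid1a gene, and the groups differed in the Cre transgene, which is driven by the cardiomyocyte promoter aMHC. Only cardiomyocytes should therefore lose the gene, while the RNA came from all cells of the ventricle. The Arid1a protein binds DNA as part of SWI/SNF, a complex that remodels chromatin.

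The mitochondrial genome is a circle that is transcribed on both strands into long precursors, and the tRNAs lie between the mRNAs and rRNAs and are cut out of them. Its mRNAs encode core subunits of respiratory complexes I, III and IV and of ATP synthase (complex V), and all other subunits come from nuclear genes. The rRNAs and tRNAs serve translation inside the organelle. Heart muscle is rich in mitochondria, and its mitochondrial content rises after birth. Copies of mitochondrial DNA also lie in the nuclear chromosomes, and a short read cannot be placed by its sequence where a copy matches it exactly.

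Library totals lay between 31011055 and 40073801 counts, of which 3688852 to 5085271 came from mt- genes. Levels are given as CPM, a gene's counts per 1e6 counts of its library after TMM scaling. Arid1a was at 128 to 148 CPM in control and 100 to 113 CPM in cKO libraries (log2 fold change -0.39, SE 0.06, adjusted p = 0.00132, edgeR). The libraries also fell into 2 sets that cross the groups. Rps3a3, a copy of a ribosomal protein gene, was below 10 CPM in control 1 and 2 and cKO 1, 2 and 3 (0.3446 to 0.5213 CPM) and above it in control 3, 4 and 5 and cKO 4 (99.74 to 112.3 CPM). The labels name no such sets, so the main results are also given within each set. Only 1 cKO library is in the high set. Cardiomyocyte markers summed to 65027 to 74873 CPM in control and 58667 to 63649 CPM in cKO libraries, and fibroblast markers to 7190 to 8532 CPM in control and 8770 to 9817 CPM in cKO libraries. Neither sum overlapped between the groups. In whole ventricles, fewer cells of a type and less RNA per cell cannot be told apart.

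Of the 13 mitochondrial mRNAs, 7 were measured at high counts and 6 were at or near 0 in every library. The 6 were mt-Co2 and mt-Co3 (complex IV), mt-Atp6 and mt-Atp8 (complex V), and mt-Nd3 and mt-Nd4l (complex I). Together they had 39 counts over the 9 libraries. No single gene of them had more than 5 counts in a library, and mt-Atp8 and mt-Nd4l had 0 in all 9. A count of 3, the upper limit that a count of 0 allows, was 0.0749 to 0.0967 CPM in these libraries. No mitochondrial mRNA of ATP synthase was therefore measured, and complex IV was represented by mt-Co1 alone.

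The genes near 0 lie next to each other, and all but mt-Atp8 are matched by an annotated nuclear copy. On GRCm38, the assembly that mm10 denotes, 7 annotated copies (Gm29216, Gm28661, Gm10925, Gm28437, Gm28438, Gm10222 and Gm28439) lie in the same order on the minus strand of chromosome 1 (24611535 to 24616197, 4663 bases). They are collinear with mitochondrial bases 6381 to 11042 (4662 bases), and the offset between the matched genes differed by 1 base. This mitochondrial stretch holds 11 mt- genes whole. They are the 6 mRNA genes near 0 and 5 tRNA genes, mt-Ts1, mt-Td, mt-Tk, mt-Tg and mt-Tr. A 75-base stretch of mt-Co2 is shown with its chromosome 1 copy and with a second copy on chromosome 2, since these differ in whether a read of that length can be told apart. Capitals mark bases that differ from the mitochondrial sequence.

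mt-Co2 (chrM:7229-7303, plus strand): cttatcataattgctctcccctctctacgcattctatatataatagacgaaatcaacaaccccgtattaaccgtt
Gm28661 (chr1:24615275-24615349, minus strand): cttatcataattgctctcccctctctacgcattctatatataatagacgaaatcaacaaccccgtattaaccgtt
Gm13341 (chr2:22587672-22587746, minus strand): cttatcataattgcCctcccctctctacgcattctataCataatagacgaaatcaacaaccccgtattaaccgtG

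The chromosome 1 copy had 0 mismatches in this stretch, and it matched mt-Co2 over all 681 bases of the copy. The chromosome 2 copy had 3 mismatches in the stretch and 97.62% identity over its length. A read of 75 bases from here could thus be assigned between the mitochondrial gene and Gm13341, but not between it and Gm28661.

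Over the whole gene, 99.51% of the 75-base windows of mt-Co2 were found exactly in an annotated nuclear copy. The share was 99.51% for mt-Atp6, 99.86% for mt-Co3, 97.81% for mt-Nd3 and 98.65% for mt-Nd4l. mt-Atp8 lies inside the collinear stretch, but no copy of it is annotated, and 0% of its windows were found. Among the genes with high counts, the share was 0% for mt-Nd1, mt-Nd6, mt-Cytb and both rRNAs, 1.66% for mt-Nd5, 5.71% for mt-Nd2, 39.84% for mt-Co1 and 61.5% for mt-Nd4. mt-Co1 and mt-Nd4 lie across the ends of the copied stretch, and their counts can come from the part outside it. Whether reads that map to several places were left out of the counts is not given in the sources used here, and the part of the nuclear copies in the low counts was not tested. Values near 0 of the 6 mRNAs are therefore no measure of their expression.

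**Figure D1:**
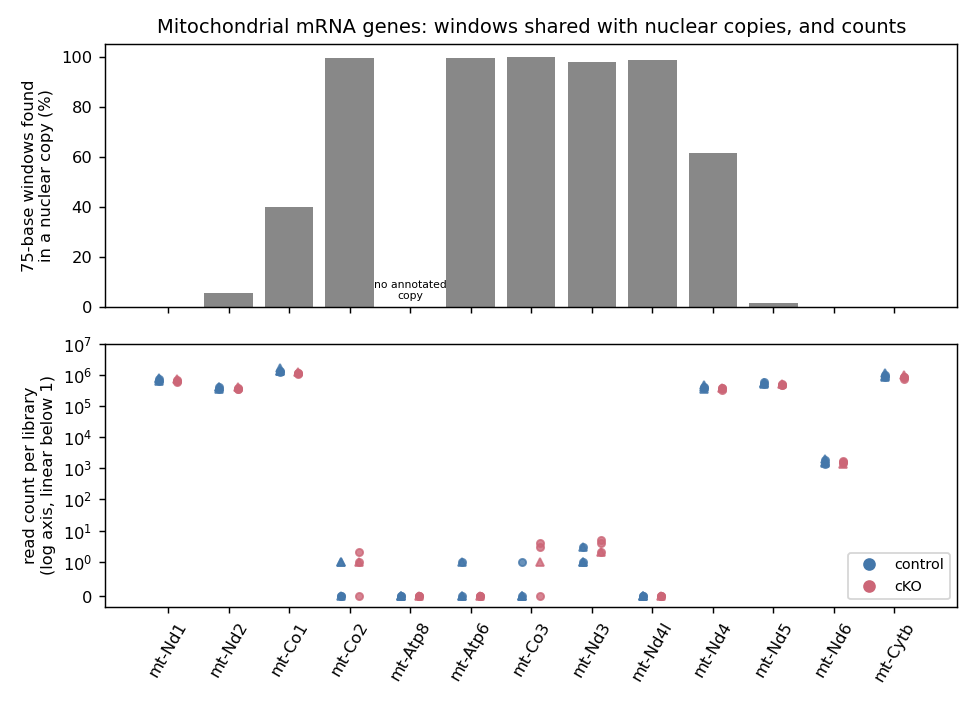
The 13 mitochondrial mRNA genes in genome order. The upper panel shows the percent of 75-base windows found exactly in an annotated nuclear copy and the lower panel the read count in each library (log axis, linear below 1; blue control, red cKO; circles Rps3a3-low, triangles Rps3a3-high libraries). The 5 genes with 97.81% to 99.86% of windows shared, and mt-Atp8, which has no annotated copy but lies between them, stay at 5 counts or fewer.

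The copies that can be told apart by mismatches over part of their length were themselves counted at low levels. Gm13340, the copy of mt-Co1 on chromosome 2, had 10.8 ± 1.91 CPM in control (SD, n = 5) and 8.53 ± 1.42 CPM in cKO libraries (SD, n = 4). Its difference did not pass the test (log2 fold change -0.35, SE 0.15, adjusted p = 0.156, edgeR). A stretch of both genes shows how closely they resemble each other, with capitals again at the bases that differ.

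mt-Co1 (chrM:5340-5414, plus strand): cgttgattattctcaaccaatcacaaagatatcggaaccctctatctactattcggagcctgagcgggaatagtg
Gm13340 (chr2:22589561-22589635, minus strand): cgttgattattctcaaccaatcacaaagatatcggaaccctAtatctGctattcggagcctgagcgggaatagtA

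Gm13340 was 97.61% identical to mt-Co1 over 1545 bases. Gm13341, the copy of mt-Co2 on chromosome 2, was at 7.42 CPM in control and 7.26 CPM in cKO libraries (adjusted p = 0.924, edgeR). Counts of these copies are uncertain, because a read with a sequencing error could move between a copy and its mitochondrial gene. Gm13340 also shares 220 exact 75-base windows with mt-Co1, and Gm13341 shares 138 with mt-Co2. Of the 7 copies on chromosome 1, the table lists Gm10222 alone, at 0.0242 to 0.162 CPM.

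Mitochondrial genes gave a lower mean share of the counts in cKO than in control ventricles. The share of all mt- genes was 12.19%, 12.93%, 13.89%, 13.91% and 13.2% in control 1 to 5, and 12.73%, 10.03%, 11.91% and 10.88% in cKO 1 to 4. The mean was 13.22% ± 0.719 (SD, n = 5) in control and 11.38% ± 1.18 (SD, n = 4) in cKO, a difference of -1.84 percentage points. The groups overlapped, since cKO 1 lay above control 1, and 3 of 4 cKO libraries lay below every control. No p is given for this sum over the members. The 6 mRNAs near 0 add almost nothing to it (39 counts in all), so its mRNA part rests on the 7 measured mRNAs. It is not the full share of mitochondrial RNA. The 95% Wilson interval of a library's share was at most 0.0238 points wide, so counting error is small beside the spread between libraries. Within the Rps3a3-low set the means were 12.6% in control and 11.6% in cKO (difference -1.01 points), and within the high set 13.7% and 10.9% (difference -2.79 points).

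**Figure D2:**
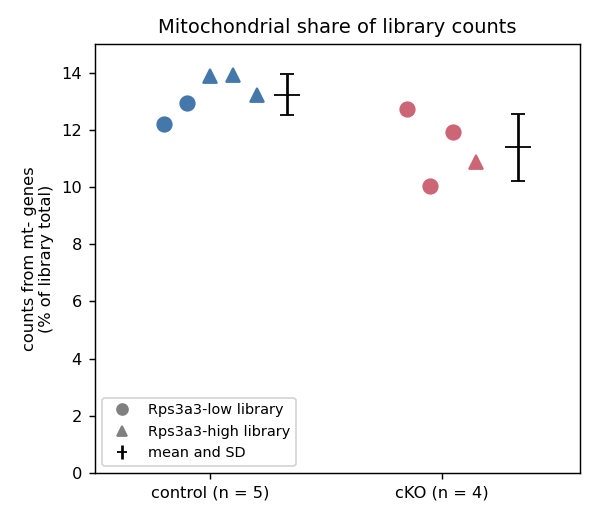
Percent of each library's counts that came from mt- genes, by group (circles Rps3a3-low, triangles Rps3a3-high libraries; bars mean and SD). Control libraries lie between 12.19% and 13.91% and cKO libraries between 10.03% and 12.73%. The mRNA part of the sum rests on the 7 measured mRNAs.

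The difference in the share was in the mRNAs. These made up 12.88% ± 0.705 of the counts in control and 11.04% ± 1.13 in cKO libraries, and both rRNAs together 0.339% ± 0.0346 and 0.342% ± 0.0627 (SD, n = 5 and n = 4). The tRNAs made up 0.0041% and 0.00404%. For every 100 mRNA counts there were 2.64 ± 0.252 rRNA counts in control and 3.09 ± 0.373 in cKO libraries, and the groups overlapped. Within the Rps3a3-low set the values were 2.76 in control and 3.27 in cKO, and within the high set 2.55 in both. Selection for poly(A) tails precedes these counts, so the ratio is not that of the RNAs in the tissue.

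The measured mRNAs differed widely in level. To compare genes per length, CPM were divided by the number of 75-base windows that no annotated copy shares. This takes reads from shared windows as not counted, which was not tested, so the CPM per kb of gene length are given beside it. In control libraries mt-Co1 was highest on both scales, at 46914 ± 3390 CPM per 1000 unshared windows and 26873 ± 1940 CPM per kb (SD, n = 5). mt-Cytb (26385 ± 1960 per 1000 unshared windows, 24679 ± 1840 per kb) and mt-Nd1 (23915 ± 1580 and 22066 ± 1460) followed. The lead of mt-Co1 over mt-Cytb is thus large only on the scale of unshared windows. The rank of mt-Nd4 depends on the scale, with 24391 ± 1490 CPM per 1000 unshared windows, beside mt-Cytb and mt-Nd1, but 8885.4 ± 543 CPM per kb, below mt-Nd2 (11127 ± 827) and close to mt-Nd5 (8990.4 ± 404). Per 1000 unshared windows mt-Nd2 was at 12706 ± 944 and mt-Nd5 at 9528.4 ± 428. The lowest mRNA was mt-Nd6, at 111 ± 13.1 per 1000 unshared windows. It is the only mRNA that lies on the minus strand of the annotation, and its transcript in human cells is known to lack a long poly(A) tail. mt-Rnr2 (1565.5 ± 173) and mt-Rnr1 (1245.5 ± 159), the large and small ribosomal RNAs, were below 6 of the 7 mRNAs on either scale. The first value of mt-Nd4 rests on 502 windows, and copies outside annotated transcripts were not searched.

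All 7 measured mRNAs had lower values in cKO ventricles, with a median log2 fold change of -0.26 beside 0.01 over all genes tested. Of the 13 mt- genes that passed the filter on low counts (7 mRNAs, 2 rRNAs and 4 tRNAs), 2 passed an adjusted p of 0.05, mt-Co1 and mt-Nd5, both lower. That is 15.4% of the members tested, near the 16.3% of all genes tested (8.03% lower, 8.25% higher). With a fold over 1.5 also required, 0 of 13 were called by edgeR, beside 6.72% of all genes. At an unadjusted p under 0.05 there were 6 of 13 members, beside 29.7% of all genes tested. DESeq2 passed 5 of 13 at an adjusted p of 0.05, beside 20.5% of all genes it tested, and called 0 with the fold required. Its 5 were mt-Co1, mt-Nd5, mt-Nd4, mt-Cytb and the tRNA mt-Tw.

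mt-Co1 (bases 5328 to 6872 of the mitochondrial genome) encodes the catalytic core subunit of cytochrome c oxidase, complex IV. It was measured at 37911, 39215, 45456, 42773 and 42237 CPM in control 1 to 5, and at 36655, 27930, 33246 and 29624 CPM in cKO 1 to 4. All cKO libraries lay below all controls, as was so for 8.58% of all genes tested. mt-Co1 fell by 23.3% in cKO ventricles (log2 fold change -0.38, SE 0.09, adjusted p = 0.0113, edgeR). It passed in all 9 fits that left out a library. Within the Rps3a3-low libraries alone it did not pass (log2 fold change -0.24, adjusted p = 0.274, edgeR). Within the high set the log2 ratio of mean CPM, cKO to control, was -0.55. With the library set as a term in the fit of all 9 libraries mt-Co1 passed (log2 fold change -0.36, adjusted p = 0.0158, edgeR).

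Complex I takes electrons from NADH, and 5 of its 7 mitochondrial subunits were measured. mt-Nd5 (bases 11742 to 13565), a proton-pumping membrane subunit, was at 15646, 17146, 15575, 16928 and 16697 CPM in control 1 to 5, and at 15091, 12423, 14664 and 12343 CPM in cKO 1 to 4. Its groups did not overlap either, though control 3 and cKO 1 lay close together. It fell by 16.9% (log2 fold change -0.27, SE 0.08, adjusted p = 0.0334, edgeR). It passed in 4 of 9 fits that left out a library, and did not pass without control 2, 4 or 5 or without cKO 2 or 4. Its log2 fold change in these 9 fits lay between -0.32 and -0.22. Within the Rps3a3-low libraries it was -0.22 (adjusted p = 0.259, edgeR). With the library set as a term mt-Nd5 passed (log2 fold change -0.29, adjusted p = 0.0186, edgeR).

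mt-Nd4, also a proton-pumping membrane subunit, was at 11328, 12229, 13195, 12733 and 11734 CPM in control and 11626, 8805, 11103 and 9447 CPM in cKO libraries. cKO 1 lay within the control range and the other cKO libraries below it. mt-Nd4 did not pass (log2 fold change -0.26, SE 0.09, adjusted p = 0.0684, edgeR), but did with DESeq2 (adjusted p = 0.0293) and in 3 of 21 alternatives in all.

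mt-Nd1, the subunit next to the quinone site, was at 19773, 21143, 21189, 23359 and 20122 CPM in control and 20069, 16186, 19419 and 18166 CPM in cKO libraries. Again cKO 1 alone lay within the control range. Its log2 fold change was -0.19 (SE 0.08, adjusted p = 0.115, edgeR). mt-Nd2, a further membrane subunit, was at 10681, 11963, 11103, 12842 and 11160 CPM in control and 11243, 9118, 10954 and 10004 CPM in cKO libraries. cKO 1 and 3 lay within the control range, and the log2 fold change of mt-Nd2 was -0.16 (SE 0.08, adjusted p = 0.199, edgeR).

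mt-Nd6 (bases 13552 to 14070) overlaps the end of mt-Nd5 on the other strand. It was at 40.68, 55.17, 53.66, 50.24 and 46.63 CPM in control and 47.56, 42.81, 47.77 and 33.94 CPM in cKO libraries. Only cKO 4 lay below every control, and the gene did not pass (log2 fold change -0.20, SE 0.11, adjusted p = 0.281, edgeR). Without cKO 4 its log2 fold change was -0.10.

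mt-Cytb (bases 14145 to 15288) encodes cytochrome b, the mitochondrial subunit of complex III. It was at 25522, 28127, 30919, 29537 and 27056 CPM in control and 26078, 20158, 24739 and 23256 CPM in cKO libraries. The groups overlapped through cKO 1, which lay above control 1. mt-Cytb did not pass (log2 fold change -0.26, SE 0.08, adjusted p = 0.0553, edgeR), but did with DESeq2 (adjusted p = 0.0189) and in 4 of 21 alternatives in all.

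**Figure D3:**
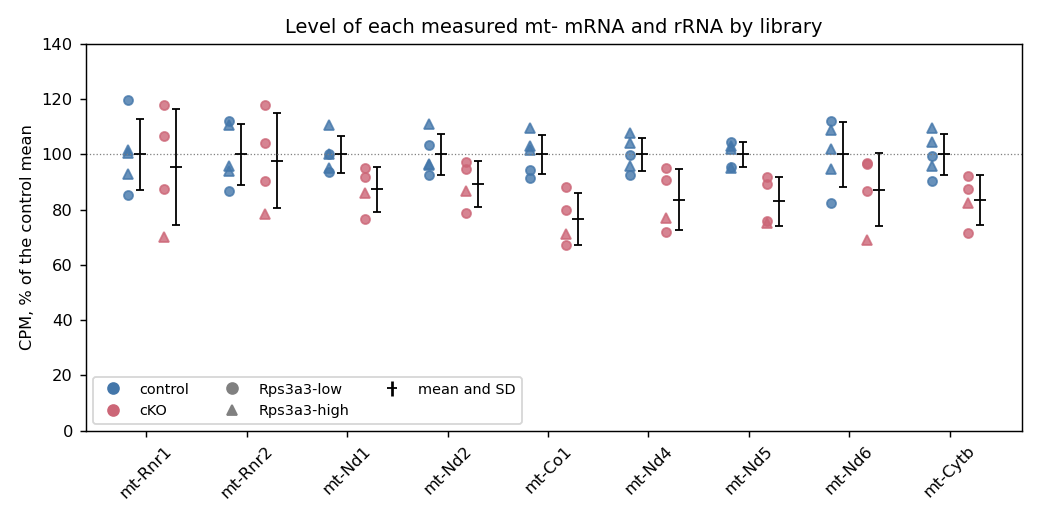
CPM of the 7 measured mRNAs and both rRNAs in each library, as percent of the control mean of the gene (blue control, red cKO; circles Rps3a3-low, triangles Rps3a3-high libraries; bars mean and SD, n = 5 and n = 4). mt-Co1 and mt-Nd5 are the genes whose groups do not overlap.

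The ribosomal RNAs had larger SEs than the mRNAs and neither passed the test. mt-Rnr1, the small subunit rRNA, was at 936.8, 1312, 1116, 1103 and 1018 CPM in control and 1294, 961.5, 1169 and 768.8 CPM in cKO libraries (log2 fold change -0.07, SE 0.14, adjusted p = 0.798, edgeR). mt-Rnr2, the large subunit rRNA, was at 2050, 2649, 2222, 2616 and 2266 CPM in control and 2787, 2134, 2456 and 1852 CPM in cKO libraries (log2 fold change -0.03, SE 0.12, adjusted p = 0.879, edgeR). For both, cKO 4 was the lowest of the 9 libraries. Within the Rps3a3-low set the log2 ratio of mean CPM, cKO to control, was 0.02 for mt-Rnr1 and 0.07 for mt-Rnr2. Within the high set it was -0.49 and -0.35.

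Of the 22 tRNAs, 4 passed the filter on low counts, mt-Ti, mt-Tm, mt-Tw and mt-Tt, which carry isoleucine, methionine, tryptophan and threonine. Each of the other 18 had at most 20 counts in any library, and 9 of them had 0 in all. The 4 are shown whole because each is shorter than a read. A counted read therefore also covers bases beside the tRNA, and where it reaches a neighbouring gene on the same strand it may be left out as ambiguous. Capitals mark bases that also belong to a neighbouring gene on the same strand.

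mt-Ti (chrM:3706-3774, plus strand): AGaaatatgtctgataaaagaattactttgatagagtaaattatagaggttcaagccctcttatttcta
mt-Tm (chrM:3845-3913, plus strand): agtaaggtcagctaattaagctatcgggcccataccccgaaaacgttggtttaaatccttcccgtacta
mt-Tw (chrM:4950-5016, plus strand): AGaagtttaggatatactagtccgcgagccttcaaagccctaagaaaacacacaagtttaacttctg
mt-Tt (chrM:15289-15355, plus strand): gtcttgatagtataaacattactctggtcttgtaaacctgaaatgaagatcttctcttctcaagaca

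A 75-base read can overlap mt-Ti and no other gene of its strand at 63 positions. There are 65 such positions for mt-Tm, 65 for mt-Tw and 67 for mt-Tt, and 0 for each of the 4 when strand is ignored. Their counts ran from 46 for mt-Tt in control 5 to 1085 for mt-Ti in cKO 1. The positions assume that all 75 bases align and that a read touching another gene is left out. Neither was tested, and mt-Tv, with 0 positions, had 2 counts in control 2 and in cKO 1. Of the tRNAs without such a position (mt-Tf, mt-Tv, mt-Tk, mt-Tg, mt-Tr, mt-Th, mt-Ts2 and mt-Tl2), none passed the filter. A position did not go with counts in every case, since 10 of the 14 tRNAs that have one did not pass either. Among these are mt-Tq (145 positions), mt-Tp (141), mt-Ts1 (143) and mt-Td (66), and mt-Ts1 and mt-Td had 0 counts in all libraries. The counts describe reads that reach into a tRNA gene and are not levels of the mature tRNA.

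mt-Tw was at 10.14, 14.45, 11.58, 10.79 and 8.827 CPM in control and 7.745, 8.377, 9.733 and 6.634 CPM in cKO libraries. cKO 3 lay within the control range and the other cKO libraries below it. It did not pass (log2 fold change -0.46, SE 0.15, adjusted p = 0.0604, edgeR). It did pass when the fit held a term for library set (-0.56, adjusted p = 0.0142, edgeR), with DESeq2 (adjusted p = 0.024) and in 5 of 21 alternatives in all.

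mt-Tt was at 2.016, 1.506, 2.244, 2.076 and 1.487 CPM in control and 2.675, 2.678, 2.375 and 1.574 CPM in cKO libraries, so 3 of 4 cKO libraries lay above every control. Its log2 fold change was 0.31 (SE 0.21, adjusted p = 0.354, edgeR). These 3 libraries are all in the Rps3a3-low set, and the direction of mt-Tt differed between the sets. The log2 ratio of mean CPM, cKO to control, was 0.55 in the low and -0.30 in the high set.

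mt-Ti and mt-Tm overlapped between the groups. mt-Ti was at 24.97, 29.92, 19.36, 19.6 and 21.05 CPM in control and 33.75, 17.26, 31.31 and 9.732 CPM in cKO libraries (log2 fold change -0.00, SE 0.34, adjusted p = 0.999, edgeR). For mt-Ti the log2 ratio of mean CPM, cKO to control, was -0.00 in Rps3a3-low libraries and -1.04 in the high set, which holds 1 cKO library. A term for library set gave mt-Ti a log2 fold change of -0.37 (adjusted p = 0.408, edgeR). mt-Tm was at 7.372, 8.747, 3.435, 2.926 and 2.716 CPM in control and 7.745, 5.01, 6.489 and 2.034 CPM in cKO libraries (log2 fold change 0.07, SE 0.46, adjusted p = 0.936, edgeR). With the library set as a term the direction of mt-Tm turned (log2 fold change -0.41, adjusted p = 0.0994, edgeR). Within the low and high sets its log2 ratios of mean CPM were -0.33 and -0.57. mt-Tm was at 5.01 to 8.75 CPM in the Rps3a3-low set and 2.03 to 3.43 CPM in the high set, with no overlap. It was the only one of the 13 tested members for which this was so, beside 8.02% of all genes tested.

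**Figure D4:**
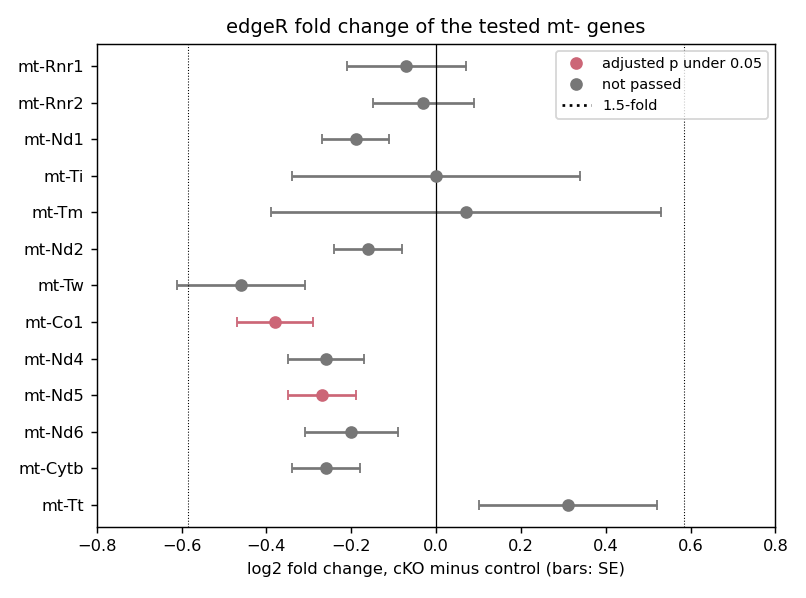
Log2 fold change of the 13 tested mt- genes in cKO against control, with SE as bars, in genome order from the top (red: adjusted p under 0.05; dotted lines: 1.5-fold). The 7 mRNAs lie between -0.38 and -0.16 and none reaches 1.5-fold, while the 4 tRNAs have the wider errors, up to an SE of 0.46.

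Shares within the mitochondrial mRNAs show whether single genes moved apart from the others. Of the summed counts of the mitochondrial mRNAs, mt-Co1 took 31.7% ± 1.21 in control and 29.4% ± 0.667 in cKO libraries (SD, n = 5 and n = 4), and the groups overlapped (30.2% to 33.1% and 28.8% to 30.3%). mt-Nd2 took 8.81% ± 0.49 in control and 9.56% ± 0.18 in cKO libraries. Its groups did not overlap, but the highest control (9.29%) and the lowest cKO library (9.31%) lay next to each other. mt-Nd1 took 16.1% ± 0.606 and 17.1% ± 0.431, with overlap. The size of these differences varied between the library sets. Within the Rps3a3-low and high sets they were -1.12 and -3.45 percentage points for mt-Co1, 0.488 and 1.05 points for mt-Nd2, and 0.59 and 1.69 points for mt-Nd1. The shares of mt-Cytb (21.5% and 21.8%), mt-Nd5 (12.5% and 12.6%), mt-Nd4 (9.34% and 9.46%) and mt-Nd6 (0.0375% and 0.0399%) overlapped too. When libraries were scaled to the mitochondrial mRNA total instead, mt-Co1 had a log2 fold change of -0.10 (adjusted p = 0.207, edgeR) and was the only mRNA of the 7 below 0, and no mRNA passed. That scaling moved the median of all genes tested from 0.01 to 0.30.

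The summed level of the cardiomyocyte markers was also lower in cKO libraries. Of 11 cardiomyocyte markers 9 had lower values in cKO, beside 48.5% of all genes tested, and Myl2 and Pln passed an adjusted p of 0.05, beside 8.03% of all genes passing lower (edgeR). Of 9 fibroblast markers 7 had higher values, and 4 passed (Col1a1, Col1a2, Tcf21 and Postn), beside 8.25% of all genes passing higher. The markers that passed are named with their values seen. No marker of either list was at 0 in all libraries. Set against the summed counts of the cardiomyocyte markers, a measure chosen after seeing the data, mitochondrial mRNA counts were 1.61, 1.78, 2.04, 2.12 and 1.98 per marker count in control 1 to 5, and 2.06, 1.49, 1.86 and 1.74 in cKO 1 to 4. The means were 1.91 ± 0.204 (SD, n = 5) and 1.79 ± 0.239 (SD, n = 4), and the groups overlapped. The difference of -0.119 ranged from -0.21 to -0.0192 when a library was left out. Within the Rps3a3-low set the mean was 1.70 in control and 1.80 in cKO, and within the high set 2.05 and 1.74. The marker sum includes Myl2 and Pln, which passed lower, so the ratio does not separate cardiomyocyte content from a change of the markers themselves. The part of cell composition in the mitochondrial values was not tested beyond this.

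Erythroid markers, which can come from blood in the ventricle, summed to 486 to 936 CPM in control and 741 to 1145 CPM in cKO libraries. Macrophage markers summed to 118 to 197 and 140 to 259 CPM, endothelial markers to 1664 to 1794 and 1629 to 1758 CPM, and mural cell markers to 1841 to 1944 and 1831 to 2157 CPM. Skeletal muscle markers, several of which neonatal heart also expresses, summed to 853 to 1508 and 850 to 1868 CPM. Of 6 skeletal muscle markers tested, 4 were higher and 2 lower in cKO. Acta1 alone passed, at 55.9 ± 17.7 CPM in control and 254 ± 161 CPM in cKO libraries (SD, log2 fold change 2.18, adjusted p = 0.0369, edgeR). All 5 of these sums overlapped between the groups. Brown fat markers summed to 58.3 to 66.7 CPM in control and 77.2 to 87.4 CPM in cKO libraries, without overlap. Only 2 of these 6 markers passed the filter, and they moved in opposite directions: Cidea rose from 29.4 to 54.8 CPM (log2 fold change 0.90, adjusted p = 3.71e-05) and Prdm16 fell from 33.5 to 27.7 CPM (-0.27, adjusted p = 0.0275, edgeR). Nuclear-retained RNAs, listed as a sign of RNA quality, summed to 884 to 1091 and 925 to 1296 CPM, and RNAs without a poly(A) tail to 0.647 to 1.89 and 1.09 to 1.72 CPM, both with overlap. Of 4 nuclear-retained RNAs tested, 3 were higher and 1 lower in cKO. Snhg11 rose from 0.165 to 1.03 CPM (log2 fold change 2.63, adjusted p = 0.0039) and Meg3 fell from 119 to 89.4 CPM (-0.41, adjusted p = 0.0191, edgeR).

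The nuclear genes that transcribe the mitochondrial genome came next. Of 10 tested, 1 passed an adjusted p of 0.05, beside 16.3% of all genes tested, and the median log2 fold change was -0.14. Mterf3, known as a repressor of mitochondrial transcription, fell from 46.5 ± 1.9 CPM in control to 36.3 ± 4.09 CPM in cKO libraries (log2 fold change -0.36, SE 0.08, adjusted p = 0.00865, edgeR). The log2 fold change was 0.20 for Polrmt, the mitochondrial RNA polymerase (adjusted p = 0.49), and ranged from 0.0 to 0.3 when a library was left out. It was -0.13 for Tfam, which packages and activates the genome (adjusted p = 0.285), and -0.15 for the initiation factor Tfb2m (adjusted p = 0.354, edgeR).

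Of 10 nuclear regulators of mitochondrial genes, 1 passed, again beside 16.3% of all genes tested. Gabpa, a transcription factor of nuclear mitochondrial genes, had a log2 fold change of -0.27 (adjusted p = 0.0493, edgeR), and passed in 3 of 9 fits that left out a library. Ppargc1a, the coactivator known for driving mitochondrial biogenesis, had a log2 fold change of -0.21 that did not pass (adjusted p = 0.268, edgeR). It ranged from -0.27 to -0.08 when a library was left out.

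Of 30 genes of mitochondrial RNA processing and stability, Rexo2 alone passed, a smaller share than the 16.3% of all genes tested. It encodes an oligoribonuclease, and rose from 42.6 ± 3.08 to 57.0 ± 2.6 CPM (log2 fold change 0.42, SE 0.07, adjusted p = 0.0015, edgeR). Lrpprc (log2 fold change -0.05, adjusted p = 0.599) and Slirp (0.12, adjusted p = 0.27), partners that stabilise mitochondrial mRNAs, and Mtpap (-0.20, adjusted p = 0.151), the mitochondrial poly(A) polymerase, did not pass. Of 19 genes of mitochondrial DNA replication and nucleotide supply, 1 passed, also a smaller share. Mgme1, a nuclease of mitochondrial DNA maintenance, fell from 13.4 ± 0.445 to 9.96 ± 0.966 CPM (log2 fold change -0.42, SE 0.09, adjusted p = 0.00735, edgeR).

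Among 81 tested genes of mitochondrial ribosomal proteins, 6 rose and 2 fell at an adjusted p of 0.05, and the median log2 fold change was 0.03. These 8 of 81 are a smaller share than the 16.3% of all genes tested. The 3 with the largest changes were the large subunit gene Mrpl34 (log2 fold change 0.84, adjusted p = 0.00134) and the small subunit genes Mrps18b (0.37, adjusted p = 0.0142) and Mrps24 (0.30, adjusted p = 0.0468). Mrpl34 was the only one also past 1.5-fold, and Mrps24 passed in 2 of 9 fits that left out a library. Of 36 translation factors and tRNA synthetases, 3 passed, a smaller share than the 16.3% of all genes tested, and the median log2 fold change was -0.06. Letm1, listed here although it is known as an inner membrane protein of ion exchange, rose (0.29, adjusted p = 0.0174). Gatc, a subunit of the glutamyl-tRNA amidotransferase, fell (-0.29, adjusted p = 0.027), as did Mrrf, the ribosome recycling factor (-0.24, adjusted p = 0.031). With a library left out, Letm1 passed in 6, Gatc in 4 and Mrrf in 5 of 9 fits.

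Nuclear subunits of the complexes that hold the mitochondrial subunits had medians between -0.15 and -0.04. In complex I, 3 of 36 subunits passed, all lower, a share near the 8.03% of all genes tested that passed lower. They were Ndufs1 (log2 fold change -0.38, adjusted p = 0.00255), Ndufa10 (-0.29, adjusted p = 0.0112) and Ndufab1 (-0.24, adjusted p = 0.0467), and Ndufab1 passed in 3 of 9 fits that left out a library. The counts for complexes III, IV and V rest on few genes and are to be read beside the same 8.03% lower and 8.25% higher. In complex III, 2 of 9 passed, the core protein Uqcrc2 (-0.26, adjusted p = 0.0123) and the iron-sulphur protein Uqcrfs1 (-0.23, adjusted p = 0.0121).

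In complex IV, the partner genes of mt-Co1 moved in both directions. Of 14 subunits, Cox6a1 (log2 fold change 0.92, adjusted p = 0.000662) and Cox8a (0.47, adjusted p = 0.00658) rose and Cox6c (-0.26, adjusted p = 0.0184) fell. Cox6a1 and Cox8a are the isoforms known from tissues other than heart and skeletal muscle, and Cox6a1 was the only one of the 14 past 1.5-fold. In complex V, 3 of 16 passed, all lower: Atp5h (-0.32, adjusted p = 0.00684), Atp5b (-0.31, adjusted p = 0.003) and Atp5c1 (-0.24, adjusted p = 0.0218), which encode parts of the stalks and the catalytic head. Atp5c1 passed in 5 of 9 fits that left out a library. Complex V is thus read here from nuclear genes only.

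**Figure D5:**
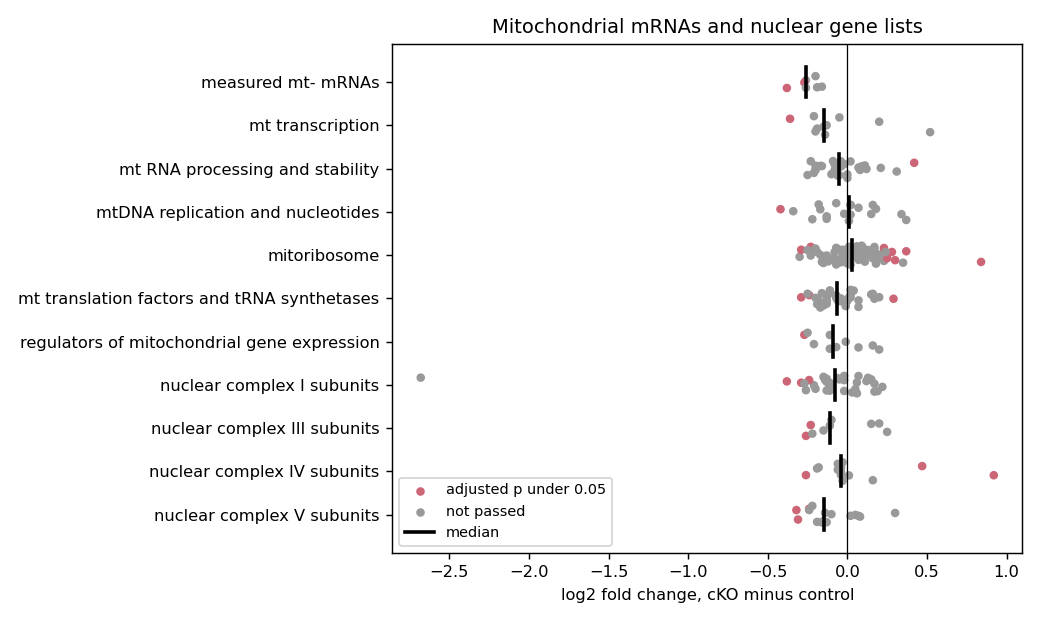
Log2 fold change in cKO against control of the 7 measured mitochondrial mRNAs and of each tested gene in 10 lists of nuclear genes (points; red: adjusted p under 0.05; black bars: median; vertical scatter has no meaning). The mRNAs have a median of -0.26 and the lists medians from -0.15 to 0.03; the grey point far left is Ndufs5 (log2 fold change -2.68, SE 1.01, adjusted p = 0.124), whose libraries range widely.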

How the data were processed

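RNA from P7 ventricles of 5 control and 4 cKO animals was sequenced by the authors as stranded poly(A) libraries, single-end, 75 bases, and mapped to mm10. The submitters' processing notes name STAR 2.4.2a and HTSeq 0.6.1; the annotation, the counting mode, the strand setting and the treatment of multi-mapped reads are not given in the sources used here. The deposited values are raw read counts per gene, with no normalization, and 0 columns belonged to other samples. Groups follow the labels, which list 5 controls where the methods state 4. Libraries are taken as separate animals, as the wording of the methods has it.

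Symbols and coordinates were taken from GENCODE M21 (36345 of 38293 identifiers, 99.82% of the counts). Nuclear copies were searched as exact 75-base windows of mt- genes in its transcripts, and all printed sequences come from it. edgeR 4.0.16 (R 4.3.3) was run on the counts: filterByExpr with a minimum count of 10 (15318 genes tested), TMM, robust quasi-likelihood F test with genotype as the only term, two-sided, Benjamini-Hochberg adjustment over all genes tested. A call needs an adjusted p under 0.05 and a fold over 1.5. SE is the fold change divided by the root of F. Alternatives were DESeq2 1.42.0, other scalings, filters and terms, and leaving out each library. On simulated data the fit passed 81.5% of 200 changed genes, whose median estimated log2 fold changes were 1.01 and -1.02. Of the genes it passed there, 7.39% were unchanged. Changes as small as those of the mt- mRNAs were not simulated. Intervals and floors cover counting error only.

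The members, the gene lists and the library sets were chosen with earlier results of these data known. The text names every mt- mRNA and rRNA, each tRNA past the filter, 7 core nuclear factors and, from each other list, up to 3 genes with the largest change among those at an adjusted p under 0.05; Ndufs5 was named after its values were seen. The symbols Prorp, Mpv17, Atp5pb and Atp5md of these lists matched no row.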

Additional observations from a re-analysis of the deposited data

How the results depend on the processing

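The count of mt- genes at an adjusted p under 0.05 was 2; it was 5 with DESeq2, 4 without a filter on low counts, 1 with total counts as the scale, 0 in the Rps3a3-low libraries alone and 1 to 4 when a library was left out. With a fold over 1.5 required it was 0 in all fits but the scaling to the mitochondrial mRNA total, where mt-Tt was called (1 gene at either threshold). That scaling turned mt-Nd1 (0.09), mt-Nd2 (0.12), mt-Nd4 (0.02), mt-Nd5 (0.01), mt-Nd6 (0.09), mt-Cytb (0.02) and the mRNA median (0.02), as it sets their sum equal in all libraries. In the other 20 of 21 alternatives all 7 mRNAs were lower. The mRNA median was -0.16 in the Rps3a3-low libraries. The difference in share was -1.01 points within the low and -2.79 points within the high set, and -2.29 to -1.39 with a library left out; per cardiomyocyte marker count it was 0.104 in the low set. mt-Co1 passed in 19 of 21 alternatives and mt-Nd5 in 12. With a library left out, the median of RNA processing genes lay between -0.07 and -0.03 (all libraries -0.05) and that of DNA replication genes between -0.07 and 0.03 (0.01).

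Whether replicate numbers pair the libraries was not settled. Deviations of libraries with the same number correlated at -0.0518, 0.0666, -0.0081 and 0.302, and libraries with different numbers were not compared. With the number as a block, 2 mt- genes passed, mt-Co1 and mt-Tw, and mt-Nd5 did not (log2 fold change -0.26, adjusted p = 0.117, edgeR). Of the tested members mt-Tt has the fewest counts, 46 to 101 a library.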
